A study of Mus musculus with 8 samples.

Results

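The genes described here were the ligands, receptors and neuropilins of the vascular endothelial growth factor (VEGF) family in lung endothelial cells (ECs) of neonatal mice. They were taken as the rows of the deposited gene count table whose symbol was Vegfa, Vegfb, Vegfc, Pgf, Kdr, Flt1, Flt4, Nrp1 or Nrp2, which gave 9 of 54532 genes (4 ligands, 3 receptors and 2 neuropilins). All 9 passed the filter on low counts, which kept 15564 genes for testing. Pgf passed it through its hyperoxia libraries, where its counts were higher. Bulk RNA-seq had been done on 8 libraries of lung ECs from WT pups at postnatal day 14. The 4 normoxia libraries came from pups in room air (21% O2), and the 4 hyperoxia libraries from pups kept in 80% O2 from day 0 to day 14, a model of bronchopulmonary dysplasia (BPD). Per the study's methods, the WT mice were C57BL/6J. CD45-coated beads were used first to remove leukocytes from the lung suspension, and CD31-coated beads then captured the ECs. The sources used here did not say how many pups made up a library, so the p-values measure the spread between libraries.

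VEGF ligands are secreted proteins that act through receptor tyrosine kinases on the EC surface. Vegfa is the main ligand of Kdr (VEGFR2), the receptor that carries most of the proliferative, migratory and permeability signal, and of Flt1 (VEGFR1), which binds Vegfa tightly, signals weakly and also occurs as a secreted form that traps ligand. Vegfb and Pgf bind Flt1, Vegfc and Vegfd bind Flt4 (VEGFR3), and Nrp1 and Nrp2 are co-receptors without kinase activity that also bind class 3 semaphorins. In the developing alveolus, Vegfa from the epithelium sustains growth of the capillary bed, and Flt4 and Vegfc are best known for lymphatic vessels.

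The libraries held 16098086 to 18300730 counts. Pan-endothelial markers were abundant in all of them, with means of 4121 (normoxia) and 4035 CPM (hyperoxia) for Cdh5, the gene of VE-cadherin, and of 2902 and 2822 CPM for the CD31 gene Pecam1 (n = 4 each). CPM is the count scaled to a common library size after TMM normalization. The summed CPM of 10 pan-endothelial markers was 14291 to 15175 in normoxia and 13561 to 14344 in hyperoxia. RNA of other lung cells was counted with that of ECs. The summed CPM of 9 alveolar type 1 markers was 141 to 166 in normoxia and 298 to 643 in hyperoxia, and that of 9 alveolar type 2 markers 247 to 344 and 777 to 2314, with hyperoxia 3 the lowest of its group in both. Fibroblast markers summed to 147 to 290 and 224 to 530 CPM, and mural and myofibroblast markers to 49.1 to 86.0 and 106 to 185 CPM. Leukocyte RNA was also counted after the CD45 step. Macrophage and leukocyte markers summed to 179 to 371 CPM in normoxia and 237 to 546 CPM in hyperoxia, lowest in hyperoxia 3 within its group. Of these 9 markers, 2 rose, 1 fell and 6 did not pass the edgeR test. No pathway or marker gene listed in this report was at 0 in all libraries.

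The promoter sequences of 4 genes whose expression changed are given first, because oxygen-dependent control of this family is usually described through the hypoxia response core. RefSeq promoter windows (GRCm38.p6) were found for all 9 genes. Each sequence is the stretch of the 250 bases before the start site that lies outside annotated exons, 5′ to 3′ on the gene's strand. Capitals mark ACGTG or GCGTG on either strand, which on the opposite strand read CACGT and CACGC. The stretches are chr17:46032378-46032627 on the minus strand for Vegfa, chr5:75978459-75978705 on the minus strand for Kdr, chr8:128358823-128359072 on the plus strand for Nrp1 and chr1:62703067-62703284 on the plus strand for Nrp2. The RefSeq start site used for Nrp1 lies 469 bases inside the gene as annotated in the count table, so its stretch falls within that gene.
Vegfa: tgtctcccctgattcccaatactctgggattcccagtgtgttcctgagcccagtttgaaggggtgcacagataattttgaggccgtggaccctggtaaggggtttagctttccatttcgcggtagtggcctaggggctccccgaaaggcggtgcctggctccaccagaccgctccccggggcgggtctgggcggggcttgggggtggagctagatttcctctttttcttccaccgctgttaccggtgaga
Kdr: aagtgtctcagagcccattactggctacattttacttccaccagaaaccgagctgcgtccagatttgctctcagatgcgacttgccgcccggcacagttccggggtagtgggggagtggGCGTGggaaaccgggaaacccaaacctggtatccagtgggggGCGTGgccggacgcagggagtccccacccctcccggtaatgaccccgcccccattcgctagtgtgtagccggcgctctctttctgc
Nrp1: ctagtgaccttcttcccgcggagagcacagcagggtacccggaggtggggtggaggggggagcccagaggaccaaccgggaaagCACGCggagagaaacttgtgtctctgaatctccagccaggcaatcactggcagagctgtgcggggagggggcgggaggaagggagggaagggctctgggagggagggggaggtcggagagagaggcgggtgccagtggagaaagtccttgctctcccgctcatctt
Nrp2: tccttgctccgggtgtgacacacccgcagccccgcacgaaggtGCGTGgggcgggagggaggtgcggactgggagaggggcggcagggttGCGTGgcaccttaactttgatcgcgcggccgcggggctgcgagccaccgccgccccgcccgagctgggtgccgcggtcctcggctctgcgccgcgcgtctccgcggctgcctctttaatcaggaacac
Kdr and Nrp2 each held GCGTG 2 times, Nrp1 held it 1 time, and the Vegfa stretch held neither form. Flt4, which rose, and Vegfc, which did not pass the test, also held neither form in their 250 upstream bases. Bases further upstream were not searched, so an absent match says nothing about sites there. Over the 250 upstream bases, 6 of the 9 genes had at least 1 such match (Vegfb, Pgf, Kdr, Flt1, Nrp1 and Nrp2), against 38.6% of 32851 RefSeq windows of the same length. The start sites used for Pgf and Flt4 lie 477 and 416 bases inside the genes as annotated in the count table. All 250 bases before these sites are annotated exon, so no stretch is printed for these genes. The match in Pgf and its absence in Flt4 therefore concern transcribed sequence. All matches in the 9 genes were GCGTG, found in 28.2% of windows, and ACGTG, found in 16.6% of windows, was in 0 of the 9. The ETS core GGAA together with the forkhead core AACA, on either strand and allowed to overlap, was in 5 of the 9 genes and in 73.4% of windows. A match is a description of these letters only.

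Of the 9 genes, 5 rose in hyperoxia (Pgf, Kdr, Flt4, Nrp1 and Nrp2), 1 fell (Vegfa) and 3 did not pass the test (Vegfb, Vegfc and Flt1) at an edgeR adjusted p under 0.05. Of all genes tested, 35.6% passed in either direction, 18.5% higher and 17.1% lower in hyperoxia. The changes were small: 1 of the 9, Pgf, also passed an absolute log2 fold change of 1, which 6.98% of all genes did (5.62% higher and 1.36% lower). The median absolute log2 fold change was 0.17 over the 9 genes and 0.23 over all genes tested. The CPM of the same 6 genes did not overlap between the groups, which held for 35.4% of all genes. The 9 genes were chosen with earlier results of these data known, so no test of the family is drawn from these shares. Because the samples were bulk RNA, fewer cells of a type and less RNA per cell cannot be told apart in any of these values.

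**Figure D1:**
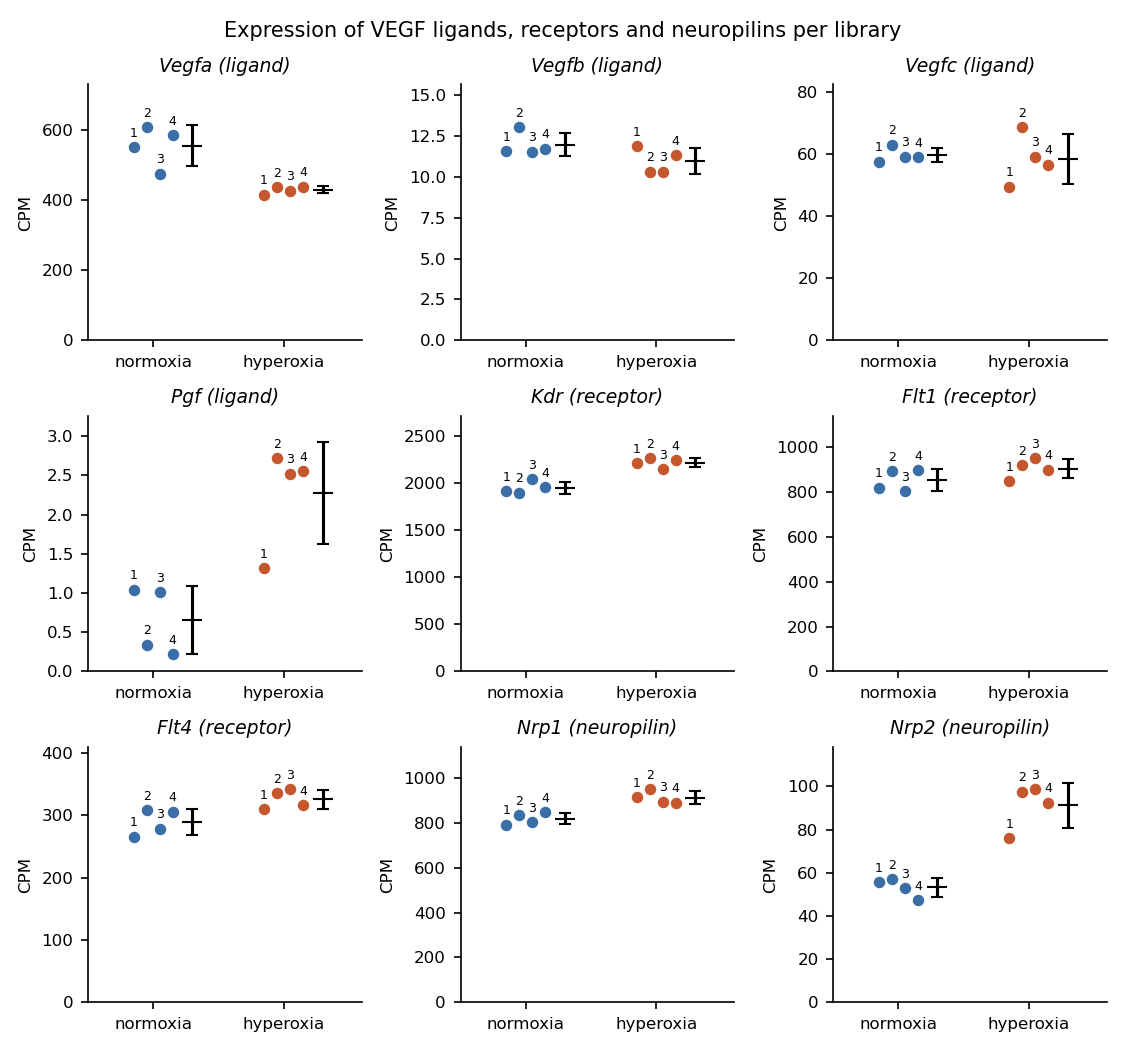
CPM of each VEGF gene (y axes, each from 0) in the 4 normoxia (blue) and 4 hyperoxia (orange) libraries, numbered by replicate, with the group mean and SD as black bars. Vegfa lay lower in every hyperoxia library than in any normoxia library, Pgf, Kdr, Flt4, Nrp1 and Nrp2 lay higher, and Vegfb, Vegfc and Flt1 overlapped.

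Among the ligands, Vegfa fell. Vegfa (ENSMUSG00000023951, GRCm38 chr17:46016993-46032369, minus strand) stood at 551, 608, 475 and 585 CPM in normoxia 1 to 4. In hyperoxia 1 to 4 it stood at 416, 436, 427 and 439 CPM. Every hyperoxia library was below every normoxia library, normoxia 3 came closest to the hyperoxia range, and the hyperoxia libraries lay close together. The mean fell from 555 ± 58.1 to 429 ± 10.3 CPM (SD, n = 4 each), a change of -22.6% (log2 fold change -0.37, SE 0.0700, 95% interval -0.53 to -0.22, edgeR adjusted p = 0.00203). Vegfa is also a known product of alveolar type 1 cells. All 9 type 1 markers rose, in the opposite direction to Vegfa. Among the EC types, 4 of 7 general capillary markers fell and 1 rose, and 5 of 7 arterial markers fell. In contrast, 6 of 7 aerocyte capillary, 5 of 6 lymphatic and 3 of 5 venous markers tested rose. The part of any of these cells in the Vegfa level was not tested.

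Pgf, which encodes placental growth factor, was the least abundant of the 9 genes and rose the most. Pgf (ENSMUSG00000004791, chr12:85166635-85177790, minus strand) had 17, 6, 18 and 4 counts in normoxia 1 to 4 and 23, 48, 44 and 46 counts in hyperoxia 1 to 4. In CPM these were 1.04, 0.341, 1.01 and 0.221 against 1.31, 2.72, 2.52 and 2.55. Hyperoxia 1 was far below the other 3 hyperoxia libraries and just above normoxia 1 and 3. The mean rose from 0.653 ± 0.432 to 2.28 ± 0.647 CPM (log2 fold change 1.80, SE 0.435, 95% interval 0.84 to 2.76, edgeR adjusted p = 0.00821). Its counts were low in every library, and the normoxia libraries fell into a higher pair (1 and 3) and a lower pair (2 and 4). Pgf met the filter on low counts through the hyperoxia libraries, as normoxia 2 and 4 fell short of it. With no filter on low counts its log2 fold change was 1.81 (edgeR adjusted p = 0.00127).

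Vegfb, Vegfc and Vegfd did not pass the test. Vegfb (ENSMUSG00000024962, chr19:6982473-6987651, minus strand), a ligand linked to metabolic and survival functions, ranged over 11.5 to 13.0 CPM (normoxia) and 10.3 to 11.9 CPM (hyperoxia) (log2 fold change -0.13, 95% interval -0.33 to 0.08, edgeR adjusted p = 0.314). Vegfc (ENSMUSG00000031520, chr8:54077606-54187096, plus strand) was at 57.5, 63.0, 59.2 and 59.0 CPM in normoxia 1 to 4. In hyperoxia 1 to 4 it was at 49.4, 68.6, 59.1 and 56.5 CPM, so that hyperoxia 1 and 2 lay on either side of the whole normoxia range. Its log2 fold change was -0.03 (95% interval -0.22 to 0.16, edgeR adjusted p = 0.811), and without hyperoxia 1 it was 0.04 (adjusted p = 0.700). Vegfd, the other Flt4 ligand and not among the 9 genes, ranged over 2.57 to 4.47 CPM in normoxic and 2.75 to 5.94 CPM in hyperoxic pups (log2 fold change 0.46, edgeR adjusted p = 0.190). Without hyperoxia 3, its lowest hyperoxia library, Vegfd passed the test (log2 fold change 0.65, adjusted p = 0.0345). Hyperoxia 3 also held the lowest summed alveolar and fibroblast markers of its group. With the alveolar epithelial score as a covariate the log2 fold change of Vegfd was -1.44, and with the fibroblast and mural score -0.48.

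Kdr, the main signalling receptor, was the most abundant of the 9 genes and rose slightly. Kdr (ENSMUSG00000062960, chr5:75932827-75978458, minus strand) stood at 1919, 1900, 2046 and 1957 CPM in normoxia 1 to 4 and at 2218, 2269, 2152 and 2248 CPM in hyperoxia 1 to 4. The groups did not overlap, and the highest normoxia library (3) and the lowest hyperoxia library (3) lay nearest to each other. The mean rose from 1956 ± 64.8 to 2222 ± 50.9 CPM, a change of 13.6% (log2 fold change 0.18, SE 0.0432, 95% interval 0.09 to 0.28, edgeR adjusted p = 0.00705).

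Flt1 (ENSMUSG00000029648, chr5:147561604-147726011, minus strand) did not pass the test. It was at 820, 894, 804 and 898 CPM in normoxia 1 to 4 and at 848, 919, 951 and 899 CPM in hyperoxia 1 to 4. Hyperoxia 2, 3 and 4 lay above all normoxia libraries, hyperoxia 4 by a narrow margin, and hyperoxia 1 lay inside the normoxia range. The log2 fold change was 0.08 (SE 0.0549, 95% interval -0.04 to 0.20, edgeR adjusted p = 0.272). The annotation lists 6 transcripts of Flt1, and a gene count does not separate the membrane receptor from the secreted form, nor the isoforms among the 13 listed transcripts of Vegfa.

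Flt4 (ENSMUSG00000020357, chr11:49609263-49652739, plus strand) rose with the largest adjusted p of the 5 genes that rose. It was at 266, 308, 278 and 305 CPM in normoxia 1 to 4 and at 310, 335, 342 and 316 CPM in hyperoxia 1 to 4. The groups did not overlap, and normoxia 2 and hyperoxia 1 lay next to each other at the border. The log2 fold change was 0.17 (SE 0.0590, 95% interval 0.04 to 0.30, edgeR adjusted p = 0.0433). The call was lost on leaving out normoxia 1 (adjusted p = 0.115), normoxia 3 (0.0974), hyperoxia 2 (0.109), hyperoxia 3 (0.104) or hyperoxia 4 (0.0563). Lymphatic EC markers were also higher in hyperoxia, where 5 of 6 tested rose. Among these, Pdpn is also an alveolar type 1 marker, and Mmrn1, Reln and Prox1 overlapped between the groups. The summed CPM of the lymphatic list was 971 to 1075 in normoxia and 1570 to 1805 in hyperoxia. Most of that sum was Lyve1, a hyaluronan receptor of lymphatic vessels that other lung ECs and macrophages also carry, at 954 and 1602 CPM, while Prox1, the factor that defines lymphatic identity, was at 10.9 and 16.6 CPM. Within normoxia, library 1 had the highest lymphatic sum (1075 CPM) and the lowest Flt4 (266 CPM). The part of lymphatic ECs in the Flt4 value was not tested.

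Both neuropilins rose, and unequally. Nrp1 (ENSMUSG00000025810, chr8:128358604-128503363, plus strand), the co-receptor of Kdr in blood vessels, was at 791, 833, 803 and 846 CPM in normoxia 1 to 4. In hyperoxia 1 to 4 it was at 915, 949, 894 and 889 CPM, above every normoxia library. The mean rose from 818 ± 25.7 to 912 ± 27.4 CPM, or by 11.4% (log2 fold change 0.16, SE 0.0438, 95% interval 0.06 to 0.25, edgeR adjusted p = 0.0176). The call was lost without normoxia 1 (adjusted p = 0.0548) and without hyperoxia 2 (0.0654). The only annotated exon overlap among the 9 genes was that of Nrp1 with Mir1903 on the same strand, over 0.818% of the exon bases of Nrp1, and Mir1903 was at 0 CPM.

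Nrp2 (ENSMUSG00000025969, chr1:62703285-62818695, plus strand), the co-receptor of Flt4 in lymphatic and venous vessels, had the smallest adjusted p of the 9 genes. It was at 55.7, 57.1, 52.8 and 47.2 CPM in normoxia 1 to 4 and at 76.0, 97.5, 98.7 and 92.4 CPM in hyperoxia 1 to 4. Hyperoxia 1 was the lowest of its group and still above all normoxia libraries. The mean rose from 53.2 ± 4.41 to 91.1 ± 10.5 CPM, a change of 71.3% (log2 fold change 0.78, SE 0.0884, 95% interval 0.58 to 0.97, edgeR adjusted p = 7.63e-05). Beside the lymphatic markers above, 3 of 5 venous markers tested rose, with summed CPM of 2108 to 2752 in normoxia and 2334 to 3214 in hyperoxia, lowest in hyperoxia 1 within its group. Most of the venous sum was Vwf, at 2071 and 2428 CPM, which did not pass (edgeR adjusted p = 0.107). Of the venous markers that rose, Nr2f2 overlapped between the groups, and Slc6a2 and Vcam1 did not. The part of lymphatic and venous ECs in the Nrp2 value was not tested.

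**Figure D2:**
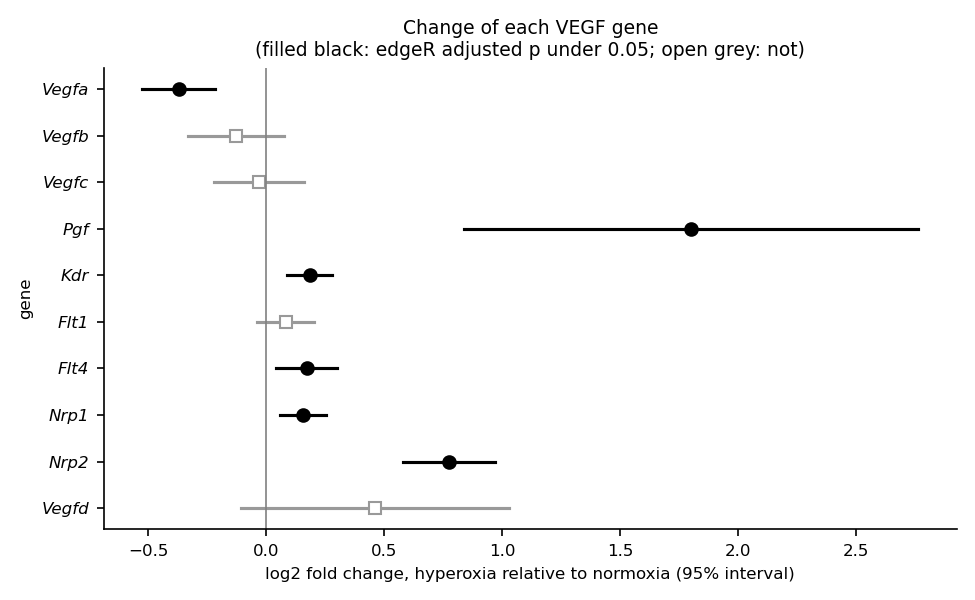
Log2 fold change of the 9 genes and Vegfd in hyperoxia relative to normoxia (x axis) with 95% intervals from the edgeR fit over 8 libraries, filled where the adjusted p was under 0.05. Pgf (1.80) and Nrp2 (0.78) stand to the right, Vegfa (-0.37) to the left, and the receptors lie between 0.08 and 0.18.

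With the mean log2 CPM of the alveolar type 1 and type 2 markers as a covariate, 0 of the 9 genes passed at an edgeR adjusted p under 0.05, and 204 genes passed in all. DESeq2 and limma-voom, run without the covariate, each called 6 of the 9. In the edgeR fit with the alveolar covariate, the log2 fold changes were -0.33 for Vegfa, 1.69 for Pgf, 0.09 for Kdr, 0.41 for Flt4, 0.13 for Nrp1 and 0.95 for Nrp2 (adjusted p = 0.118). The SE of Vegfa in that fit was 0.219. With the fibroblast and mural score as the covariate, Nrp2 passed (0.74, adjusted p = 0.0129) and the other 8 did not. The summed alveolar markers were higher in every hyperoxia library than in every normoxia library, so epithelial RNA and oxygen exposure cannot be told apart well in these groups. In hyperoxia 3, which held the least alveolar epithelial RNA of its group, Vegfa (427 CPM) lay within the range of the other hyperoxia libraries, Nrp2 (98.7 CPM) above it and Kdr (2152 CPM) below it.

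Levels can be set side by side between genes only per gene length, and the deposited FPKM (counts per unit of gene length and of sequencing depth) were used for this, as a description. In normoxia the order of mean FPKM was Kdr (215), Vegfa (128), Nrp1 (82.9), Flt1 (62.7), Flt4 (34.8), Vegfc (24.2), Vegfb (7.39), Nrp2 (4.46) and Pgf (0.223). No neighbours in this order overlapped in their range over 4 libraries. By mean FPKM over the 8 libraries, Kdr was placed 127 among the 15564 genes tested and Pgf 13693. In hyperoxia the order changed at 1 place, where Nrp2 (7.66) stood above Vegfb (6.79) in 3 of 4 libraries with overlapping ranges. Vegfa (99.7) and Nrp1 (92.7) came to overlap in range, although Vegfa was the higher in each of the 4 libraries.

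Summed by role, the 3 receptors went from 312 ± 6.89 to 351 ± 6.66 FPKM, the 2 neuropilins from 87.4 ± 2.23 to 100.3 ± 3.16 FPKM and the 4 ligands from 160.2 ± 13.7 to 131 ± 5.30 FPKM (mean ± SD, n = 4 each). Kdr made up 68.8% and 69.8% of the receptor sum. The share of Vegfa in the ligand sum was 77.8% to 81.3% in normoxia and 74.2% to 77.6% in hyperoxia, and that of Nrp2 in the neuropilin sum 4.40% to 5.50% and 6.43% to 8.36%. Neither share overlapped between the groups.

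**Figure D3:**
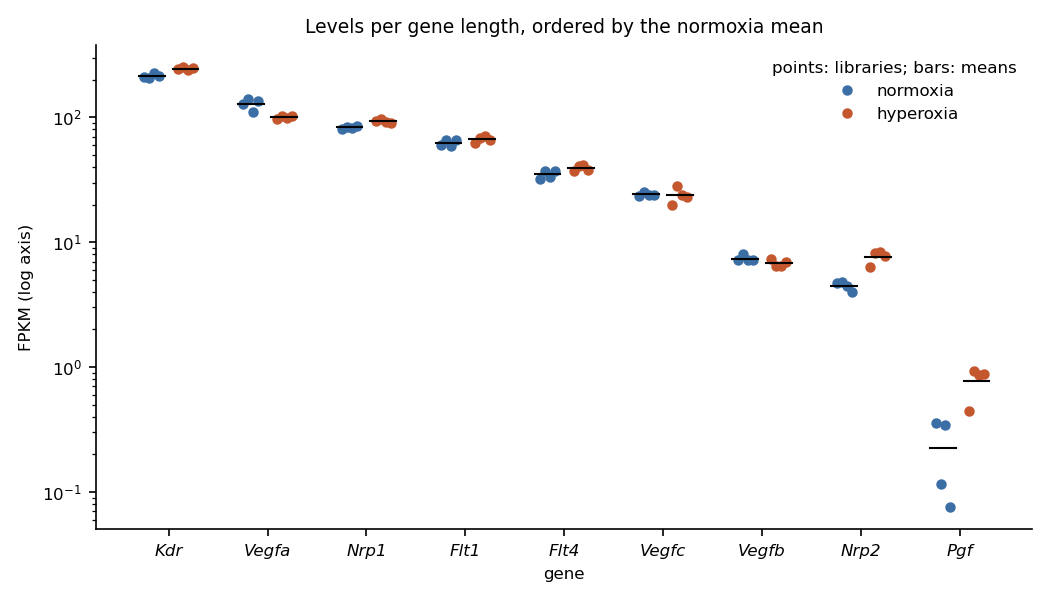
Deposited FPKM of the 9 genes (y axis, log scale) in each normoxia (blue) and hyperoxia (orange) library, with the group mean as a bar, ordered by the normoxia mean. Kdr stands at the top (215 and 245) and Pgf at the bottom (0.223 and 0.780), and Nrp2 moves level with Vegfb in hyperoxia.

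Ratios between these genes within a library do not depend on library scaling, and 7 were compared. The log2 count ratio of Nrp2 to Nrp1 rose from -3.83, -3.87, -3.93 and -4.16 in normoxia to -3.59, -3.28, -3.18 and -3.27 in hyperoxia, with no overlap. The mean difference was 0.62 (exact two-sided permutation p = 0.0286, Benjamini-Hochberg adjusted over the 7 ratios 0.1). The ratio of Pgf to Vegfa differed by 2.41, also without overlap (exact permutation p = 0.0286, adjusted 0.1). The smallest p of this design is 0.0286, from 70 assignments of the libraries, so 0 of the 7 ratios passed after adjustment and 2 were under 0.05 before it.

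No change passed the test in the proportions of the receptors to each other or of Nrp1 to Kdr. The log2 count ratio of Flt4 to Kdr differed by -0.01 (exact permutation p = 0.914), that of Nrp1 to Kdr by -0.03 (p = 0.600) and that of Flt1 to Kdr by -0.10 (p = 0.229), and the groups overlapped in each. The ratios of Vegfc and Vegfb to Vegfa differed by 0.32 (exact permutation p = 0.0571) and 0.24 (p = 0.0857), and these groups overlapped too.

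Set against the summed count of the 10 pan-endothelial markers, 7 of the 9 genes did not overlap between the groups, 6 higher and 1 lower in hyperoxia. The same held for 33.8% of all genes tested, 20.7% higher and 13.2% lower. The log2 differences were 2.10 for Pgf, 0.82 for Nrp2, 0.24 for Kdr, 0.22 for Flt4, 0.21 for Nrp1, 0.13 for Flt1 and -0.31 for Vegfa, each at the smallest exact permutation p of 0.0286. Flt1 overlapped in CPM, and on log2(FPKM + 0.1) the count without overlap was 5, with Flt1 at 0.06 (exact permutation p = 0.229) and Flt4 at 0.15 (exact permutation p = 0.0571) overlapping. Vegfb (-0.08, exact p = 0.457) and Vegfc (0.01, exact p = 0.914) overlapped. Of the 10 markers in the denominator, 2 rose (Cldn5 and Emcn) and 3 fell (Tek, Tie1 and Erg), and Tek is the angiopoietin receptor gene.

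**Figure D4:**
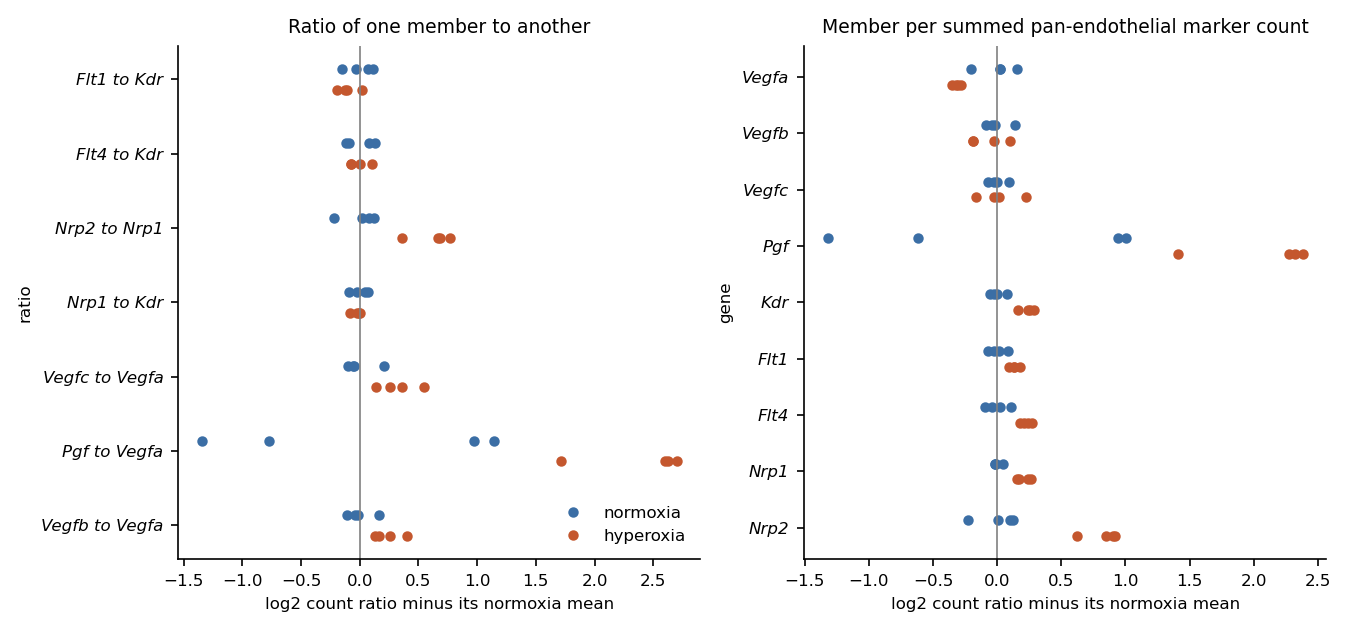
Log2 count ratios per library minus their normoxia mean (x axes), for 7 ratios between VEGF genes (left) and for each of the 9 genes over the summed pan-endothelial marker count (right), normoxia in blue and hyperoxia in orange. Nrp2 to Nrp1 and Pgf to Vegfa separate on the left, and all genes but Vegfb and Vegfc separate on the right.

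The profiles most like those of the 6 changed genes were found among 9077 protein-coding genes with a mean of at least 10 CPM, by the root mean square difference of centred log2 CPM over the 8 libraries. For Vegfa they were Arid2 (0.0367), a chromatin remodelling subunit, and Emsy (0.0393). For Kdr they were Mlf2 (0.0232) and the cortical actin regulator Cttn (0.0277), for Nrp1 Pxdn (0.0197), which crosslinks basement membrane collagen, and Armcx3 (0.0203), and for Flt4 L3mbtl3 (0.0313) and Rnf19a (0.0348). The nearest to Nrp2 were Arid3a (0.0729) and Procr (0.0736), the endothelial protein C receptor. No close profile was found for Pgf, where Lrg1 (0.413) and Slc40a1 (0.447) came nearest. Pgf had 4 to 48 counts per library, and counting scatter at that level limits how near any candidate can come.

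Other genes of the pathway were taken from 7 lists with 122 genes, of which 120 were tested and 76 passed, 52 higher and 24 lower in hyperoxia. That was 63.3%, against 35.6% of all genes tested. The lists were chosen with earlier results of these data known, so no test of the pathway is drawn from these shares. With the alveolar epithelial score as a covariate 3 of the 120 passed, and with the fibroblast and mural score 25, so the list counts that follow hold for the fit without these scores.

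Among the class 3 semaphorins, which compete for neuropilins or signal through them, and their plexin receptors, 6 of 12 rose and 1 fell (median log2 fold change 0.19). Of the A-type plexins, which pair with neuropilins, Plxna2 and Plxna4 rose and Plxna1 and Plxna3 did not pass. Plxna2 rose from 110 ± 5.97 to 239 ± 25.5 CPM (log2 fold change 1.12, edgeR adjusted p = 2.39e-06), and Plxna4 from 51.9 ± 1.64 to 92.4 ± 8.82 CPM (0.83, adjusted p = 8.30e-06). Sema3g, which arterial ECs secrete, fell from 1031 ± 63.7 to 657 ± 41.3 CPM (-0.65, adjusted p = 1.91e-05). Arterial EC markers moved with Sema3g: 5 of 7 fell, and their summed CPM was 2914 to 3592 in normoxia and 2088 to 2334 in hyperoxia, a part that was not tested. Sema3a and Sema3e, named after their values were seen, rose from 3.11 ± 0.816 to 13.8 ± 4.61 and from 1.61 ± 0.377 to 15.2 ± 6.96 CPM (log2 fold changes 2.15 and 3.23). Hyperoxia 3 was the lowest of its group for both (7.5 and 5.15 CPM), as it was for the alveolar type 1 and type 2 markers, whose part was not tested. Plxnd1, the receptor of Sema3e, was at 789 and 814 CPM and did not pass (adjusted p = 0.597).

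Among the proteins that hold, traffic or dephosphorylate the receptors, 5 of 15 rose and 4 fell (median log2 fold change -0.03). Ptprb, the endothelial phosphatase VE-PTP that restrains VEGFR2, fell from 3691 ± 449 to 2488 ± 275 CPM (-0.57, edgeR adjusted p = 0.00113), and Efnb2, an ephrin needed for receptor internalization, fell by 0.46 on the log2 scale. Myo1c, a motor that returns VEGFR2 to the surface, rose (0.52), as did the endocytic adaptor Dab2 (0.43). Cdh5 did not pass (-0.03, adjusted p = 0.658). Ptprb is also a general capillary marker, a list in which 4 of 7 fell (summed CPM 9898 to 11335 in normoxia, 8380 to 9649 in hyperoxia). That count and that sum include Ptprb itself. Efnb2 is an arterial marker and is likewise counted in the arterial list. The part of those cell types was not tested.

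Of 34 signal transducers of VEGFR2, 10 rose and 8 fell (median 0.03). The largest rises above the abundance minimum were those of the small heat shock protein gene Hspb1 (0.58) and the kinase gene Prkd1 (0.38), and the largest falls those of Vav2 (-0.52), an exchange factor for Rac, and the Src family kinase Yes1 (-0.38). The first enzyme after the receptor, Plcg1, was at 418 and 444 CPM (0.09, adjusted p = 0.181), and the endothelial nitric oxide synthase gene Nos3 at 122 and 125 CPM (0.04, adjusted p = 0.714).

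Of 20 VEGF-induced and tip cell genes, 13 rose and 3 fell (median 0.42). Apln, the ligand of the apelin receptor, rose from 323 ± 47.9 to 920 ± 75.9 CPM (1.51, edgeR adjusted p = 2.31e-06), and the adhesion molecule gene Icam1 from 318 ± 35.2 to 689 ± 28.9 CPM (1.12, adjusted p = 1.85e-06). Cxcr4, a chemokine receptor of sprouting cells, fell from 92.4 ± 5.13 to 40.5 ± 8.13 CPM (-1.19, adjusted p = 2.43e-05), and the tip cell gene Esm1 from 60.0 ± 12.7 to 36.0 ± 4.03 CPM (-0.74, adjusted p = 0.00234). The Notch ligand Dll4, induced by VEGF in tip cells, was at 351 and 333 CPM and did not pass (-0.07, adjusted p = 0.391). Thus tip cell genes of this list were found in both directions. Apln is also a marker of aerocytes (aCap cells), and 6 of 7 aerocyte markers rose, with summed CPM of 1782 to 2582 in normoxia and 3283 to 3888 in hyperoxia. That count and that sum include Apln itself. Of the general capillary (gCap) markers, 4 of 7 fell and 1 rose, with the sums given above. The part of these capillary types in the list was not tested.

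The most one-sided list was that of ligand proteases, traps and inhibitors, where 13 of 17 tested rose and 1 fell (median 0.88). Timp3, a protease inhibitor that also blocks binding of Vegfa to Kdr, rose from 299 ± 36.0 to 1419 ± 37.7 CPM (2.25, edgeR adjusted p = 3.75e-08). Ctgf, the matrix protein CCN2 that binds Vegfa, rose from 64.1 ± 8.95 to 227 ± 63.8 CPM (1.82, adjusted p = 2.06e-05). The sheddase gene Adam17 fell by 0.19 on the log2 scale. Members of this list are also made by fibroblasts and mural cells, whose markers rose in 5 of 8 and 7 of 9 cases, and the part of those cells was not tested.

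Of the transcriptional regulators of VEGF ligands and receptors, 5 of 21 tested rose and 7 fell (median 0.01). Epas1, which encodes the hypoxia-inducible factor HIF-2 alpha, fell from 6709 ± 276 to 5471 ± 103 CPM (-0.29, edgeR adjusted p = 0.000555), and Hif1a rose from 99.7 ± 4.32 to 117 ± 7.32 CPM (0.24, adjusted p = 0.00677). The genes of 2 EC lineage factors, Sox17 and Ets1, fell (-0.48 and -0.46), and Fli1, another ETS family gene, rose (0.41). Sox17 is also one of the arterial markers, of which 5 of 7 fell, Sox17 included, and their part was not tested. Prox1 rose (0.60, adjusted p = 0.0440) although its CPM overlapped between the groups. These are transcript levels, and the activity of the factors was not measured.

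**Figure D5:**
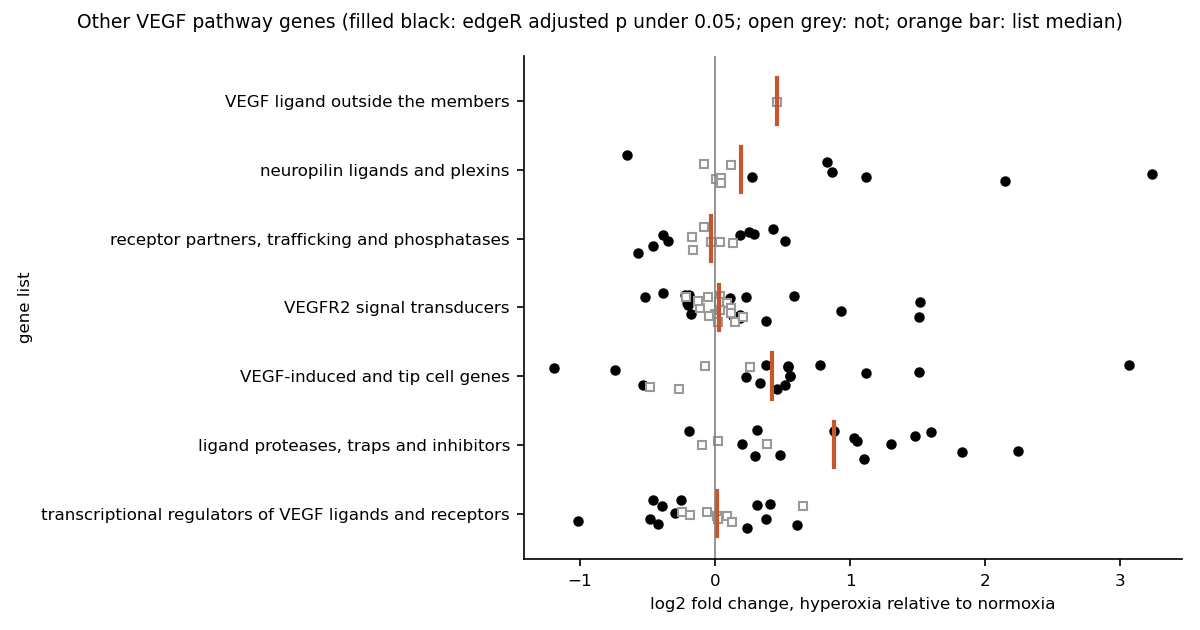
Log2 fold change in hyperoxia relative to normoxia (x axis) of the 120 tested genes of the 7 pathway lists (rows), filled where the edgeR adjusted p was under 0.05, with the list median as an orange bar. The proteases, traps and inhibitors (median 0.88) and the VEGF-induced genes (0.42) lie to the right, and the transducers and regulators lie on both sides of 0.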

How the data were processed

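Whole-number gene counts and FPKM values of 54532 genes in 8 libraries were deposited by the authors. The submitters' processing notes name HISAT2 2.0.5, featureCounts 1.5.0-p3 and the build mm10, which is GRCm38. The use of strand and of reads matching several genes is not given in the sources used here. The authors' FPKM equalled the count over gene length and library total, times a constant of 0.974 to 1.01 per library, within a relative deviation of 4e-08, so they served for levels between genes and as an alternative. Coordinates and lengths of the 9 genes equalled GENCODE M21.

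The deposited counts went into edgeR 4.0.16 (R 4.3.3), fitted by quasi-likelihood with TMM scaling, filterByExpr and group alone in the design. P-values were adjusted by Benjamini-Hochberg over 15564 genes. For ratios within a library, the exact permutation test (two-sided) was used, and sign flips of paired differences in the replicate block setting. Alternatives used DESeq2 1.42.0, limma 3.58.1, other scalings and filters, log2 FPKM with pseudocounts of 0.1 and 1, marker score covariates, the Y-linked share, thinning and leaving out each library. The scripts were tested on simulated counts.

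Groups came from the labels. The 9 genes, the lists and the tests were chosen with earlier results of these data known. Of each pathway list, the genes named are those with the 2 largest rises and the 2 largest falls past an adjusted p of 0.05 and at least 10 CPM, and others named are key members given whether or not they passed. Ccn1 and Ccn2 were matched as Cyr61 and Ctgf. For values per pan-endothelial count, the number of genes without overlap is given in place of an adjusted p. Counts of 20 or fewer limit the precision of Pgf in normoxia.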

Additional observations from a re-analysis of the deposited data

Results flagged for a closer look

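In 8 of 76 groups of 4 libraries, 1 library stood apart from the other 3 by Dixon's criterion, where chance alone gives about 1 in 20, or 3.8 groups. Hyperoxia 1 was low for Pgf in CPM (1.31), in the log2 count ratio of Pgf to Vegfa (-8.31) and in that of Pgf to the pan-endothelial markers (-13.3). These 3 values share the same Pgf count. Normoxia 2 was high for Vegfb (13.0 CPM), and normoxia 3 for the log2 count ratio of Vegfc to Vegfa (-3.01). Normoxia 2 was also high for the log2 count ratio of Nrp1 to the pan-endothelial markers (-4.11), and normoxia 4 for the summed CPM of those markers (15175). Hyperoxia 3 was low for the summed CPM of the alveolar type 1 markers (298).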

How the results depend on the processing

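Of the 22 alternatives, 20 left 4 to 6 of the 9 genes past an adjusted p of 0.05. The exceptions were the alveolar epithelial score as a covariate (0 of 9, with 3 of the 120 pathway genes) and the fibroblast and mural score (1 of 9, with 25 pathway genes). The count past the fold as well was 0 with either score and 0 with log2(FPKM + 1), because that pseudocount compresses the change of Pgf to 0.54. Across the alternatives, Flt4 lost its call in 12 of 22, Nrp1 in 5, Vegfa, Pgf and Kdr in 2 and Nrp2 in 1. Vegfc turned to 0.021 with the epithelial score and ranged from -0.116 to 0.042 on leaving out 1 library, and Vegfd turned to -1.44 and -0.48 with the 2 scores. The log2 ratio of Flt4 to Kdr ranged from -0.051 to 0.033, and Vegfc per pan-endothelial count from -0.061 to 0.070, on leaving out 1 library, and the latter was -0.061 with log2(FPKM + 0.1), where 5 genes in place of 7 did not overlap per pan-endothelial count (Flt1 and Flt4 were lost). Thinning to the smallest total left Pgf at 1.79 (adjusted p = 0.00921). The cause of these changes was not tested. Same-numbered libraries did not deviate together (correlations -0.14, -0.13, 0.04 and 0.12). With 4 libraries per group, these correlations cannot settle whether libraries of the same number were paired. With the replicate block, 4 of the 9 genes (Vegfa, Pgf, Kdr and Nrp2) and 4792 genes in all passed. Flt4 and Nrp1 then had edgeR adjusted p of 0.0560 and 0.0553. For the ratios, this setting tested the 4 differences between same-numbered libraries by sign flips. Such a test cannot give a p under 0.05, so that 0 ratios passed was fixed in advance. Per pan-endothelial count, 7 genes differed in the same direction in all 4 same-numbered pairs, a looser criterion than groups without overlap.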

Other observations

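Several pathway genes below the abundance minimum also passed the edgeR test, and they are named here after their values were seen. F3, which encodes tissue factor and is induced by VEGF in ECs, rose from 0.286 ± 0.119 to 2.44 ± 0.926 CPM (SD, n = 4 each, log2 fold change 3.06, edgeR adjusted p = 0.000251). F3 met the filter on low counts only through its hyperoxia libraries. The kinase gene Src was at 4.58 ± 0.728 and 13.0 ± 2.21 CPM (1.51, adjusted p = 4.48e-05), and Sphk1, a sphingosine kinase gene, at 0.961 ± 0.365 and 2.76 ± 0.660 CPM (1.52, adjusted p = 0.00248). Ccbe1, a secreted cofactor in the maturation of Vegfc, was at 3.18 ± 0.480 and 9.63 ± 0.738 CPM (1.6, adjusted p = 1.06e-05). Ppargc1a, a metabolic coactivator that can drive Vegfa independently of hypoxia-inducible factors, fell from 3.43 ± 0.492 to 1.70 ± 0.135 CPM (-1.01, adjusted p = 0.00132). All 9 alveolar type 1 and all 9 alveolar type 2 markers were also higher in hyperoxia, and their part in these values was not tested.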
